A study of Mus musculus with 6 samples.

Results

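The genes described here are 10 genes of TGF-beta signalling, chosen as a list by symbol and matched to their Ensembl identifiers: the ligands Tgfb1, Tgfb2 and Tgfb3, the receptors Tgfbr1, Tgfbr2 and Tgfbr3, and the feedback and co-repressor genes Smad7, Skil, Pmepa1 and Tgif1. All 10 were found among the 55471 genes of the table, and all 10 passed the filter on low counts. PolyA RNA was sequenced from 3 libraries labelled Ranbp2 KO and from 3 WT libraries. Both groups are 10T1/2 cells, a mouse embryonic fibroblast line, grown in serum-containing medium with no treatment. Ranbp2 encodes a large protein on the cytoplasmic side of the nuclear pore; per the labels it was knocked out by CRISPR/Cas9 for this study, and qPCR, western blot and staining were used to examine the deletion. Replicates are described as biological, without saying how cultures were kept apart or how many clones stand behind the KO-labelled libraries. The p-values therefore reflect only how much these 6 libraries vary.

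TGF-beta is secreted in a latent complex, in which the mature ligand is held by its own propeptide and tethered to the matrix by a latent TGF-beta binding protein. Once released, the ligand binds TGFBR2, which recruits and phosphorylates TGFBR1, and TGFBR1 phosphorylates SMAD2 and SMAD3, which enter the nucleus with SMAD4. TGFBR3, betaglycan, presents ligand to TGFBR2 and is needed most for the product of Tgfb2, which binds TGFBR2 weakly by itself. In fibroblasts the pathway is known for raising matrix, contractile and protease inhibitor genes, and it raises its own inhibitors: SMAD7, which blocks and degrades the receptors, SKIL (SnoN), which represses SMAD target genes, and PMEPA1, a membrane protein that sequesters SMAD2 and SMAD3. TGIF1 is a homeobox co-repressor of SMAD target genes.

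The KO-labelled libraries held 32072817 to 39378190 expected counts and the WT libraries 41354198 to 46321967. The level of Ranbp2 did not go with the label: it stood at 293.8, 288.7 and 292.7 CPM (counts scaled to the library total, with TMM factors) in the KO-labelled libraries, against 219.6, 250.0 and 248.8 CPM in the WT libraries, a log2 difference of 0.28 (SE 0.07, adjusted p = 0.012 by edgeR's quasi-likelihood test). A count per gene does not show whether the transcript carries an edit, so the groups are called KO-labelled and WT throughout. The 14 fibroblast markers, led by Fn1, had summed levels of 28310 to 35360 CPM in KO-labelled and 23050 to 26550 CPM in WT libraries. Without Fn1 the other 13 summed to 16940 to 18980 CPM in KO-labelled and 17460 to 20410 CPM in WT libraries, which overlap. Of the 14 genes 5 were called higher and 4 lower by edgeR, with a median log2 difference of -0.06. Thy1, one of them, stood at 0.53 ± 0.22 CPM in KO-labelled and 58.3 ± 2.45 CPM in WT libraries (SD, n = 3 each). Of 10 epithelial markers 9 stayed under 1 CPM in every library. The list summed to 6.24 to 9.23 CPM in KO-labelled and 2.33 to 2.96 CPM in WT libraries, of which Cdh1 held 7.46 and 2.22 CPM on average. Cdh1, the only epithelial marker tested, was called higher (log2 difference 1.745, SE 0.19, adjusted p = 7.21e-05 by edgeR). Of 10 leukocyte markers 8 stayed under 1 CPM, with sums of 5.46 to 6.29 CPM in KO-labelled and 8.27 to 8.67 CPM in WT libraries; Cd14 was highest at 2.7 CPM in KO-labelled and 6.04 CPM in WT libraries, and Adgre1 had no count. Cd14 was called lower and Lyz2 higher, at 0.78 CPM in KO-labelled and 0.29 CPM in WT libraries, and the median log2 difference of the 4 leukocyte markers tested was 0.31. Of 8 endothelial markers 4 stayed under 1 CPM; the sums were 27.5 to 31.1 CPM in KO-labelled and 36.5 to 41.2 CPM in WT libraries, led by Tek at 21.9 CPM in KO-labelled and 37.0 CPM in WT libraries. Tek was called lower, while Vwf was called higher, at 6.04 ± 0.89 CPM in KO-labelled and 0.27 ± 0.15 CPM in WT libraries (log2 difference 4.47, SE 0.33, adjusted p = 7.14e-06 by edgeR). Without Tek the other 7 endothelial markers summed to 7.47 to 8.88 CPM in KO-labelled and 1.87 to 2.55 CPM in WT libraries, and the median log2 difference of the 4 tested was 0.53. The part of these markers in the results below was not tested, and in bulk RNA fewer cells of a type and less RNA per cell cannot be told apart.

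Tgfb2 and Tgfbr1 were higher and Tgfb3, Tgfbr2, Smad7 and Pmepa1 lower in the KO-labelled libraries, while Tgfb1, Tgfbr3, Skil and Tgif1 did not pass the test. The test was edgeR's quasi-likelihood F test with Benjamini-Hochberg adjustment over 15454 genes, at an adjusted p below 0.05. It called 6 of the 10 genes, 2 higher and 4 lower. Over all genes tested it called 38.9%, with 17.6% higher and 21.3% lower. The values of the groups did not overlap for 7 of the 10 genes, 2 higher and 5 lower, against 51.4% of all genes tested, 24.6% higher and 26.8% lower. The median log2 difference of the 10 was -0.18, beside 0.01 for all genes. The called members fall into changes of about 1.5-fold or more that held under all 12 alternatives with a test (Tgfb2, Tgfb3, Tgfbr2 and Pmepa1) and changes of 1.20-fold or less that did not (Tgfbr1 and Smad7).

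**Figure D1:**
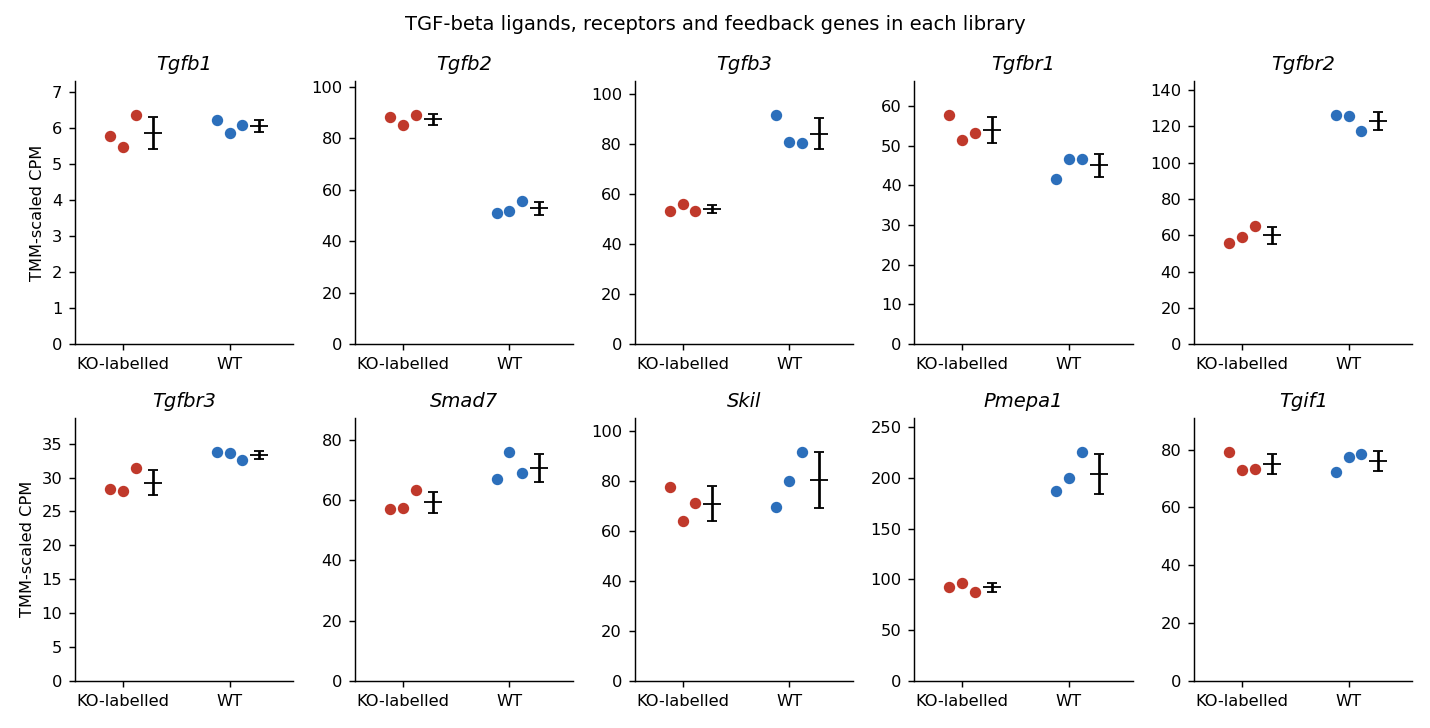
TMM-scaled CPM (vertical axis, from 0) of the 10 genes in each KO-labelled library (red) and each WT library (blue), with the mean and SD of 3 libraries in black. Tgfb2 lies at 85.04 to 88.98 CPM in KO-labelled and 51.0 to 55.8 CPM in WT libraries, while Tgfb3, Tgfbr2 and Pmepa1 lie lower in all 3 KO-labelled libraries than in any WT library.

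Among the ligands, Tgfb2 and Tgfb3 moved in opposite directions and Tgfb1 was low throughout. Tgfb2 (ENSMUSG00000039239, GRCm38 chromosome 1, 186622792 to 186705989, minus strand) encodes the ligand best known from heart, palate and eye development. It had 88.3, 85.04 and 89.0 CPM in the KO-labelled libraries, against 51.0, 51.9 and 55.8 CPM in the WT libraries. The groups lay well apart, and the spread within each was a few CPM. The means were 87.5 ± 2.11 CPM in KO-labelled and 52.9 ± 2.56 CPM in WT libraries, a 1.65-fold increase (log2 difference 0.73, SE 0.07, adjusted p = 2.88e-05 by edgeR). Across all genes tested, 17.7% had a larger difference in either direction.

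Tgfb3 (ENSMUSG00000021253, chromosome 12, 86056745 to 86079041, minus strand) encodes the ligand needed for palate fusion. It had 53.2, 56.0 and 53.2 CPM in the KO-labelled libraries, against 91.3, 80.7 and 80.1 CPM in the WT libraries. WT library 1 was the highest of the 6, and the lowest WT value still lay above every KO-labelled value. The means were 54.1 ± 1.61 CPM in KO-labelled and 84.0 ± 6.31 CPM in WT libraries, a log2 difference of -0.63 (SE 0.08, adjusted p = 0.00014 by edgeR). A difference of larger size was seen in 21% of genes tested.

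Tgfb1 (ENSMUSG00000002603, chromosome 7, 25687002 to 25705077, plus strand) encodes the ligand most studied in fibrosis and immune control. Its level was 5.79, 5.47 and 6.35 CPM in the KO-labelled libraries, against 6.21, 5.87 and 6.08 CPM in the WT libraries. The groups overlapped, and the log2 difference was -0.05 with a 95% interval of -0.27 to 0.18 (adjusted p = 0.783 by edgeR). It rested on 199 to 270 expected counts per library, whereas the other 9 genes had at least 983.

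The change of Tgfb2 against Tgfb3 does not depend on how libraries are scaled, since both are read in the same library. The ratio of Tgfb2 to Tgfb3 counts was 1.66, 1.52 and 1.67 in the KO-labelled libraries, against 0.558, 0.643 and 0.696 in the WT libraries, 2.56 times higher on average. Tgfb3 counts exceeded Tgfb2 counts in every WT library, and the reverse held in every KO-labelled library. To compare levels between genes, CPM was divided by the length of each gene's exons in kilobases. On that scale Tgfb2 made up 46.8 ± 1.18% of the summed level of the 3 ligands in KO-labelled and 26.0 ± 2.09% in WT libraries (SD, n = 3 each). Tgfb3 made up 49.6 ± 1.41% in KO-labelled and 70.6 ± 2.17% in WT libraries, and Tgfb1 3.61 ± 0.27% and 3.42 ± 0.08%. With the longest annotated transcript as the length, Tgfb2 at 48.3% stood above Tgfb3 at 45.2% in the KO-labelled libraries, so the order of these ligands there depends on the length used. The summed level of the 3 ligands was 32.3 ± 0.12 CPM per kilobase in KO-labelled and 35.2 ± 1.63 in WT libraries. These shares and sums describe the chosen genes and carry no test.

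**Figure D2:**
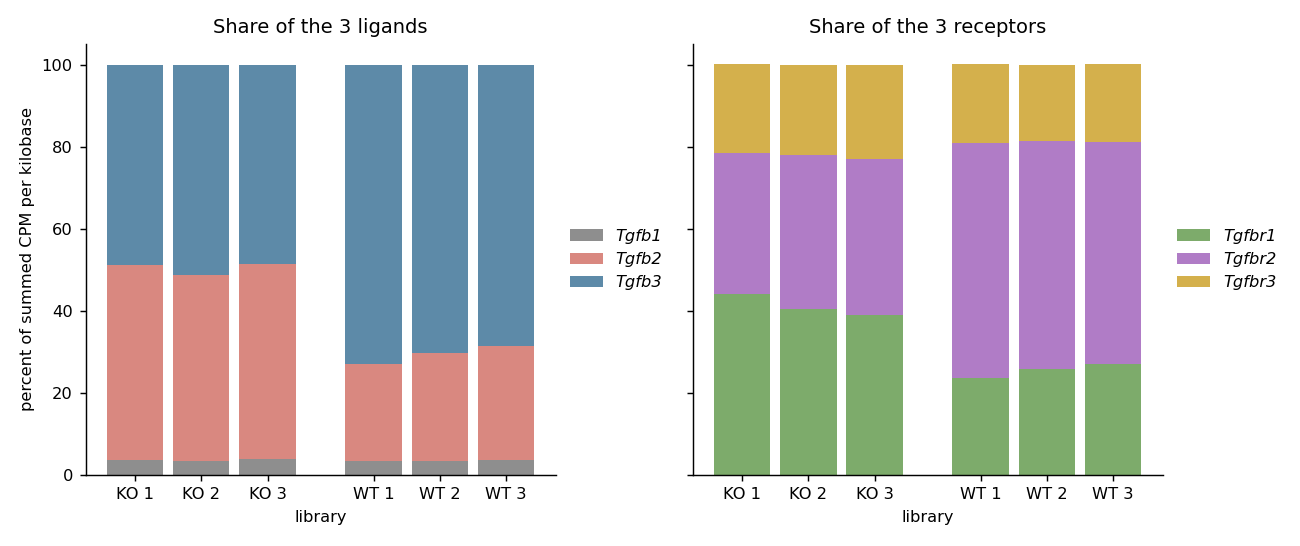
Share (percent, vertical axis) of each ligand and each receptor in the summed CPM per kilobase of exon of its family, 1 bar per library with KO-labelled libraries to the left. Tgfb2 takes 45.4 to 47.5% of the ligands in KO-labelled and 23.8 to 27.9% in WT libraries, and Tgfbr2 takes 34.2 to 38.1% of the receptors in KO-labelled and 54.2 to 57.2% in WT libraries.

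Among the receptors, Tgfbr2 changed most. Tgfbr2 (ENSMUSG00000032440, chromosome 9, 116084293 to 116175360, minus strand) encodes the receptor that binds the ligand. It had 55.9, 59.2 and 65.0 CPM in the KO-labelled libraries, against 126.0, 125.8 and 117.4 CPM in the WT libraries. The highest KO-labelled value lay far below the lowest WT value. The means were 60.0 ± 4.6 CPM in KO-labelled and 123.1 ± 4.92 CPM in WT libraries, 2.05-fold lower in the KO-labelled ones (log2 difference -1.04, SE 0.08, adjusted p = 6.05e-06 by edgeR). A larger difference was seen in 10.9% of genes tested.

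Tgfbr1 (ENSMUSG00000007613, chromosome 4, 47353222 to 47414931, plus strand) encodes the kinase that phosphorylates SMAD2 and SMAD3. It had 57.6, 51.3 and 53.1 CPM in the KO-labelled libraries, against 41.7, 46.6 and 46.7 CPM in the WT libraries. The groups did not overlap, but the lowest KO-labelled value lay only a few CPM above the highest WT value. The means were 54.0 ± 3.25 CPM in KO-labelled and 44.99 ± 2.88 CPM in WT libraries, a 1.20-fold increase (log2 difference 0.26, SE 0.08, adjusted p = 0.0255 by edgeR). Leaving out any of 4 libraries ended the call by edgeR: the adjusted p was 0.0771 and 0.064 without KO-labelled libraries 1 and 3, and 0.0633 and 0.0603 without WT libraries 1 and 2. Over the alternatives with a test it ran from 0.0132 to 0.0771. Of all genes tested, 51.7% had a larger difference.

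Tgfbr3 (ENSMUSG00000029287, chromosome 5, 107106570 to 107289629, minus strand) had 28.3, 28.02 and 31.4 CPM in the KO-labelled libraries, against 33.8, 33.6 and 32.7 CPM in the WT libraries. The groups did not overlap, yet the log2 difference of -0.19 (SE 0.07, 95% interval -0.33 to -0.05) did not pass at an adjusted p of 0.06 by edgeR. Without KO-labelled library 3 it was -0.25 and passed (adjusted p = 0.039); over the alternatives the adjusted p ran from 0.039 to 0.183.

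The receptors also changed relative to each other. The ratio of Tgfbr1 to Tgfbr2 counts was 1.03, 0.866 and 0.817 in the KO-labelled libraries, against 0.331, 0.370 and 0.398 in the WT libraries, 2.47 times higher on average. The ratio of Tgfbr3 to Tgfbr2 counts was 0.506, 0.473 and 0.483 in KO-labelled and 0.268, 0.267 and 0.278 in WT libraries. Per kilobase of exon, Tgfbr2 made up 36.5 ± 2.06% of the summed level of the 3 receptors in KO-labelled and 55.6 ± 1.5% in WT libraries. Tgfbr1 made up 41.2 ± 2.67% in KO-labelled and 25.5 ± 1.68% in WT libraries, and Tgfbr3 22.3 ± 0.68% and 18.9 ± 0.29%. Per kilobase, Tgfbr2 was thus the highest of the 3 in every WT library and Tgfbr1 in every KO-labelled library. The order was the same with the longest transcript as the length. In KO-labelled library 3 the 2 were close per kilobase of exon, at 38.9% for Tgfbr1 and 38.1% for Tgfbr2. By counts, Tgfbr2 stayed above Tgfbr1 in KO-labelled libraries 2 and 3. The summed receptor level was 20.1 ± 0.75 CPM per kilobase in KO-labelled and 27.0 ± 0.58 in WT libraries.

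The promoters of Tgfb2 and Tgfbr2 are shown because these are the ligand that rose and the receptor that fell most, and both have an entry in the RefSeq promoter table (GRCm38.p6). They were chosen after their values were known. Each run holds the 250 bases before the transcription start, 5′ to 3′ on the gene's strand, at chr1:186705990-186706239 (minus strand) for Tgfb2 and chr9:116175364-116175613 (minus strand) for Tgfbr2. Capitals mark matches to CAGAC, the core of the SMAD binding element, searched on both strands.
Tgfb2: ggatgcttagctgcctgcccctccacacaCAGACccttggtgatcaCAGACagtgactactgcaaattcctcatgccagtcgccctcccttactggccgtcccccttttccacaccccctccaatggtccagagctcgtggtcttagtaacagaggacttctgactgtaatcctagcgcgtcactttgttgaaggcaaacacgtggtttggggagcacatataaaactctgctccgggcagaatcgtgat
Tgfbr2: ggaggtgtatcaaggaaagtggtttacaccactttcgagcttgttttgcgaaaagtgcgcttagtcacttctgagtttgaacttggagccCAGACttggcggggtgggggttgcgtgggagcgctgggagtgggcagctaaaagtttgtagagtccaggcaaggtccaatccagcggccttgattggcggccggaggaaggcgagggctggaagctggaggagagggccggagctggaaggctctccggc
The Tgfb2 window held 2 matches, with first bases at -221 and -204 relative to the start site, and the Tgfbr2 window 1 match, with its first base at -160. Of all 32851 promoter windows of this length, 42.2% hold at least 1 match, so a match is common. The AP-1 motif TGAGTCA, also searched on both strands and found in 4.46% of all windows, was in neither. Of the 10 genes 5 had entries, in 10 windows: besides these, 1 of 2 windows of Tgfbr1 and 3 of 5 of Tgif1 held CAGAC, the window of Tgfb1 did not, and none held the AP-1 motif. A match is a run of letters and not evidence of binding, and its absence says nothing about the factor.

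Among the feedback genes, Pmepa1 had the largest change of all 10 genes. Pmepa1 (ENSMUSG00000038400, chromosome 2, 173224458 to 173276533, minus strand) had 92.4, 96.6 and 87.6 CPM in the KO-labelled libraries, against 186.5, 199.7 and 225.3 CPM in the WT libraries. The groups were far apart, and the WT libraries were the more spread. The means were 92.2 ± 4.49 CPM in KO-labelled and 203.8 ± 19.7 CPM in WT libraries, 2.21-fold lower in the KO-labelled ones (log2 difference -1.14, SE 0.08, adjusted p = 6.13e-06 by edgeR). A larger difference was seen in 9.42% of genes tested.

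Smad7 (ENSMUSG00000025880, chromosome 18, 75367529 to 75395935, plus strand) had 57.2, 57.5 and 63.4 CPM in the KO-labelled libraries, against 67.1, 76.0 and 69.1 CPM in the WT libraries. KO-labelled library 3 came within a few CPM of the lowest WT library. The log2 difference was -0.25 (SE 0.08, adjusted p = 0.0271 by edgeR), which 53.2% of genes tested exceeded in size. This call too ended when single libraries were left out: the adjusted p by edgeR was 0.0759 and 0.104 without KO-labelled libraries 1 and 2, and 0.134 without WT library 2. Its lowest value over the alternatives with a test was 0.0068.

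Skil and Tgif1 did not pass the test. Skil (ENSMUSG00000027660, chromosome 3, 31095058 to 31122577, plus strand) had 77.8, 63.8 and 71.2 CPM in the KO-labelled libraries, against 69.4, 80.1 and 91.5 CPM in the WT libraries. Its values were scattered in both groups and overlapped; the log2 difference was -0.18 with a 95% interval of -0.39 to 0.03 (adjusted p = 0.22 by edgeR). Single libraries moved that value from -0.28, without WT library 1, to -0.08, without WT library 3. Tgif1 (ENSMUSG00000047407, chromosome 17, 70844205 to 70853546, minus strand) had 79.1, 72.9 and 73.1 CPM in the KO-labelled libraries, against 72.2, 77.3 and 78.5 CPM in the WT libraries. Its log2 difference was -0.02 with a 95% interval of -0.15 to 0.12 (adjusted p = 0.858 by edgeR). The log2 differences of the 4 feedback genes were all below 0 and unlike in size. That of Pmepa1 was over 1 in size and that of Smad7 small, while the intervals of the other 2 include 0. The interval of Skil also holds the value of Smad7, and differences between these genes were not tested.

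Ordered by level per kilobase of exon, Pmepa1 was highest and Tgfb1 lowest in both groups. Pmepa1 stood at 18.8 ± 0.91 CPM per kilobase in KO-labelled and 41.5 ± 4.02 in WT libraries, and Tgfb1 at 1.16 ± 0.09 and 1.20 ± 0.03. In the KO-labelled libraries the order from the top was Pmepa1, Tgfb3 (16.0), Tgfb2 (15.1), Tgif1 (13.3), Smad7 (13.1), Tgfbr1 (8.26), Tgfbr2 (7.33), Skil (7.32), Tgfbr3 (4.47) and Tgfb1, with mean CPM per kilobase in brackets. In the WT libraries it was Pmepa1, Tgfb3 (24.8), Smad7 (15.6), Tgfbr2 (15.03), Tgif1 (13.5), Tgfb2 (9.13), Skil (8.29), Tgfbr1 (6.89), Tgfbr3 (5.09) and Tgfb1. The ranges over libraries overlapped for the neighbours Tgif1 and Smad7, Tgfbr1 and Tgfbr2, and Tgfbr2 and Skil in the KO-labelled libraries, and for Smad7 and Tgfbr2 and for Tgfb2 and Skil in the WT libraries. With the longest transcript as the length, 4 of the 10 genes kept their place in KO-labelled and 5 in WT libraries, and Tgif1 then stood highest in the KO-labelled libraries at 23.9 CPM per kilobase, above Pmepa1 at 20.3.

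The genes lie on 10 different chromosomes, and the chromosomes differ in their medians. Genes on chromosome 1, where Tgfb2 lies, had a median log2 difference of 0.29 over 967 genes, and genes on chromosome 17, where Tgif1 lies, one of 0.28 over 783 genes. Less the median of its chromosome, the log2 difference was 0.44 for Tgfb2, 0.14 for Tgfbr1, -0.74 for Tgfb3, -0.87 for Tgfbr2, -0.36 for Smad7 and -1.04 for Pmepa1, so each of the 6 called genes kept its direction. The same subtraction gave -0.29 for Tgif1, whose own difference was near 0. What part a chromosome has in the difference of a gene was not tested.

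**Figure D3:**
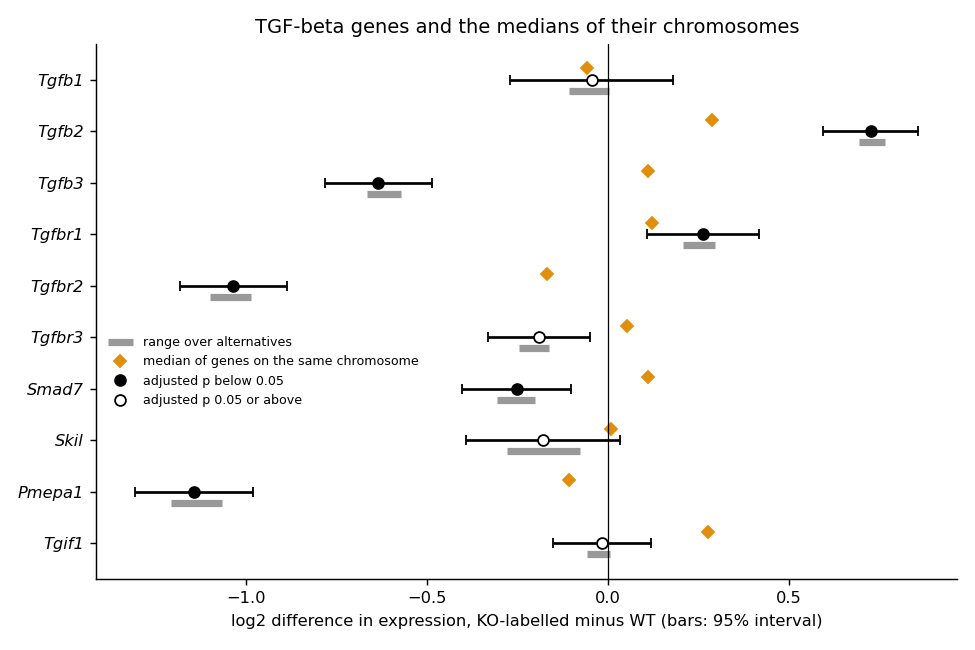
Log2 difference in expression (horizontal axis, KO-labelled minus WT) of each gene with its 95% interval, the range over the alternative analyses in grey, and the median of all genes on its chromosome as an orange diamond; filled circles passed at an adjusted p below 0.05. The intervals of Tgfb2, Tgfb3, Tgfbr2 and Pmepa1 lie away from 0 and from the diamond. So do those of Smad7 and, though it did not pass, Tgfbr3. The interval of Tgfbr1 reaches its chromosome's median of 0.12.

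Some counts may have been shared with other genes. All 6 values of Tgfbr2 and of Tgfbr3 are not whole, nor are 5 of Tgfb3, 3 of Tgfb1 and 1 of Tgfb2, which means that reads were divided with other genes. Exons of Tgfb2 overlap those of the opposite-strand Gm29491 over 124 bases, exons of Tgfb3 those of the opposite-strand Gm37804 and Gm48008 over 163 and 257 bases, and exons of Tgfbr3 those of the same-strand Gm43422 over 297 bases. These genes with shared exon bases held at most 5.61 counts in any library. Ttll5, opposite Tgfb3, and Gm42900, on the strand of Tgfbr3, overlap them without shared exon bases. They held 617 to 956 and 69.49 to 97.23 counts. The annotation showed no overlapping gene for Tgfbr2 or Tgfb1, so what shared their reads is not known here. Tgif1-ps, a processed copy of Tgif1 on chromosome 3, had 0 counts in every library.

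In the intracellular part of the pathway more genes were called lower than higher. Of 16 genes for SMADs, co-repressors and ubiquitin ligases, all tested, 1 rose, 8 fell and 7 did not pass, with a median log2 difference of -0.23. Among all genes tested, 17.6% were called higher and 21.3% lower. Zfyve9, the gene of the anchor protein SARA that presents SMADs to the receptor, rose to 55.9 ± 2.55 CPM in KO-labelled libraries, against 43.9 ± 0.88 CPM in WT (log2 difference 0.35, SE 0.07). Ski, the co-repressor related to Skil, fell to 115.9 ± 8.29 CPM in KO-labelled libraries, against 183.8 ± 10.7 CPM in WT (-0.67, SE 0.08). Smad1 and Smad5, which carry BMP signals, differed by -0.72 (SE 0.08) and -0.44 (SE 0.06). The ubiquitin ligase genes Smurf1, which acts with SMAD7 on the receptors, and Rnf111, which degrades SMAD7 and SKIL, differed by -0.44 (SE 0.08) and -0.32 (SE 0.06). Smad2 and Smad4, named outside the rule for their place in the pathway, did not pass, with log2 differences of 0.12 and 0.06, while Smad3 passed at -0.26 (SE 0.09, adjusted p = 0.0406 by edgeR).

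Genes of the latent complex, its release and its activation were more often lower than higher. Of 18 listed genes 17 were tested: 3 rose, 12 fell and 2 did not pass, with a median log2 difference of -0.57. The shares over all genes tested were 17.6% higher and 21.3% lower. Nrros stood at 0.022 CPM or less. Ltbp1, which tethers the latent ligand to the matrix, fell to 38.2 ± 4.12 CPM in KO-labelled libraries, against 103.9 ± 3.07 CPM in WT (log2 difference -1.44, SE 0.09). Thbs1, whose product thrombospondin can activate latent TGF-beta, had the largest decrease of the list at -1.89 (SE 0.14). Ltbp3, a second tether, differed by -0.68 (SE 0.09), Furin, the protease that cuts the precursor, by -0.67 (SE 0.10), and Plau, which starts plasmin formation, by -0.65 (SE 0.08). The genes that rose were Itgb8 (1.63, SE 0.13) and Itgb3 (0.97, SE 0.13), integrin chains that pair with alpha V and can activate the latent ligand, and Lrrc32 (0.52, SE 0.12), a cell-surface tether of it. They were weakly expressed: Itgb8 stood at 12.2 ± 1.79 CPM in KO-labelled and 3.94 ± 0.22 CPM in WT libraries. The other integrin beta chains of the list, named outside the rule, were lower: Itgb1 (-0.53, SE 0.10), Itgb5 (-0.45, SE 0.09) and Itgb6 (-0.61, SE 0.15). Itgav, the alpha V gene, also named outside the rule, did not pass (-0.15).

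Accessory receptors and ligand-binding proteins held the largest increase and the largest decrease of the 4 lists, those of Dcn and Eng. Of 14 listed genes 13 were tested: 4 rose, 4 fell and 5 did not pass, with a median log2 difference of 0.17. The shares over all genes tested were 17.6% higher and 21.3% lower. Acvrl1 stayed under 1 CPM. Eng, the gene of endoglin, a co-receptor related to betaglycan, had 3.94, 4.52 and 4.57 CPM in the KO-labelled libraries, against 42.9, 41.2 and 36.7 CPM in the WT libraries. Its log2 difference was -3.21 (SE 0.10, adjusted p = 2.36e-08 by edgeR), and the groups were far apart. Vasn, which binds TGF-beta, differed by -0.92 (SE 0.07), Cd109, a surface co-receptor that dampens signalling, by -0.90 (SE 0.07), and the BMP and activin receptor gene Acvr1 by -0.71 (SE 0.07). Bambi, the gene of a decoy receptor without a kinase, rose to 10.6 ± 0.76 CPM in KO-labelled libraries, against 4.26 ± 0.36 CPM in WT. Dcn and Fmod, matrix proteoglycans that bind TGF-beta, rose by 1.98 (SE 0.14) and 1.51 (SE 0.12), and Nrp1, a co-receptor, by 0.53 (SE 0.08) on the log2 scale.

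Genes known to rise with TGF-beta in fibroblasts split, with more of them lower. Of 30 genes, all tested, 5 rose, 17 fell and 8 did not pass, with a median log2 difference of -0.46. Among all genes tested, 17.6% were called higher and 21.3% lower. Several of the 30 genes are set by other pathways too. Cdkn1a, the cell cycle inhibitor p21, which is also a target of p53, differed by -1.86 (SE 0.07), and Ncam1, an adhesion molecule, by -1.81 (SE 0.11). Adam12, a metalloprotease of activated fibroblasts, differed by -1.34 (SE 0.10), the matrix gene Tnc by -1.25 (SE 0.11) and Timp3, an inhibitor of metalloproteinases, by -1.17 (SE 0.09). The genes that rose were Postn, the gene of periostin (1.92, SE 0.09), Fn1, of fibronectin (1.31, SE 0.15), Angptl4, a lipase inhibitor (1.25, SE 0.10), Col3a1, of collagen III (0.94, SE 0.11), and Snai2, a transcription factor (0.35, SE 0.07). Fn1 and Col3a1 lie on chromosome 1, whose median is given above. Ccn2, a matricellular gene named outside the rule as a common reporter of the pathway, differed by -0.73 (SE 0.14). The 8 genes that did not pass, also named outside the rule, were Tgfbi, Col1a2, Col4a1, Col5a1, Tagln, Loxl2, Cdkn2b and Bhlhe40. All adjusted p-values of the genes named from these lists as changed were below 0.05 by edgeR, and the lists are described without a test of their own.

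**Figure D4:**
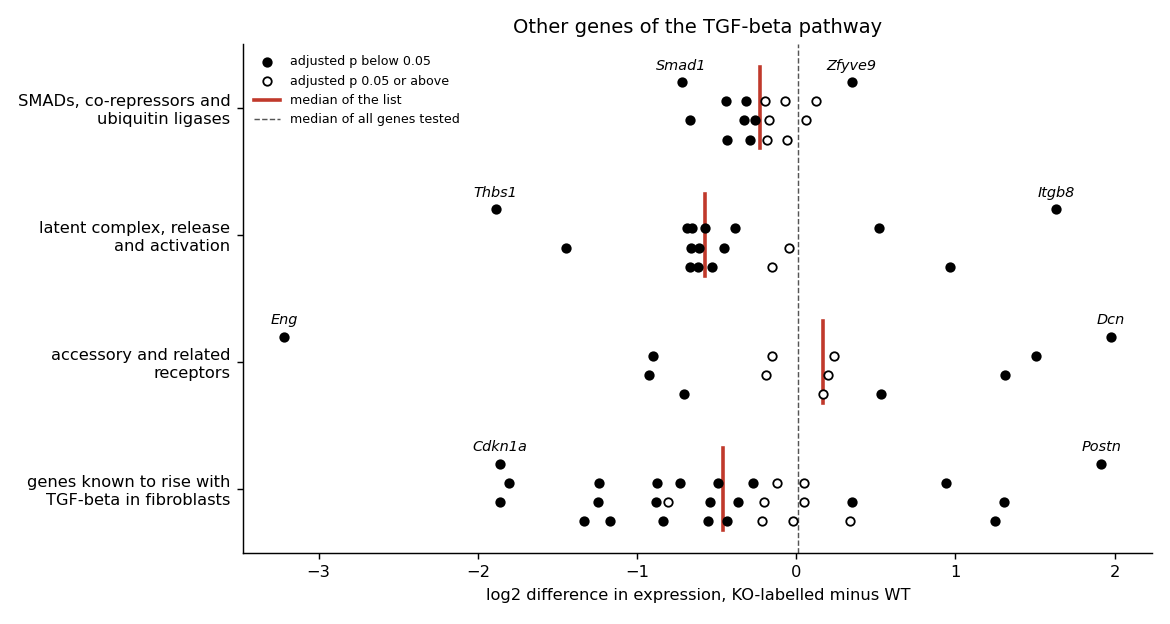
Log2 difference in expression (horizontal axis, KO-labelled minus WT) of each tested gene of the 4 other pathway lists; filled circles passed at an adjusted p below 0.05, red lines are list medians and the dashed line is the median of all genes tested, 0.01. The lowest and highest gene of each list is named, from Eng at -3.21 to Dcn at 1.98; vertical positions within a list carry no value.

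Across the 6 libraries, log2 CPM of Tgfb2 ran most closely with Lipo3 (Pearson r = 0.9990), Oard1 (0.9989) and Tox (0.9987), and that of Pmepa1 with Zkscan5 (0.9998), Gnaq (0.9997) and Tpd52l2 (0.9992). These are the closest of 8862 protein-coding genes with a mean of at least 10 CPM. The values describe 6 points in 2 groups, and the difference between the groups makes up most of them.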

How the data were processed

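The table holds expected counts per gene that the authors deposited, made on GRCm38 with cutadapt and RSEM per the submitters' processing notes. Not given in the sources used here: tool versions, aligner and strand setting. Rounding to whole numbers came first. Then genes were kept by filterByExpr of edgeR (at least 10 counts, total of at least 15), which left 15454, and were scaled by TMM. The test was edgeR 4.0.16 in R 4.3.3 (quasi-likelihood F test, two-sided, genotype as the only term) with Benjamini-Hochberg adjustment over these genes. Libraries held 32072817 to 46321967 expected counts. Intervals called 95% span 1.96 SE to each side, a multiplier for a normal distribution. They can be narrower than the F test allows with 6 libraries, and the calls rest on the F test. Symbols, positions and exon lengths came from GENCODE M21 on the same build, in which 55230 of the 55471 identifiers matched. Libraries of a group differed pairwise by more than sampling noise.

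The 10 genes and the other lists were chosen with earlier results of these data known. The genes named are all 10, Ranbp2, up to 5 genes called higher and 5 called lower with the smallest adjusted p in each pathway list, the top gene of each marker list, and the 3 genes most like the called gene with the largest increase and the one with the largest decrease. Thy1, Vwf, Lyz2 and the genes said to be outside this rule were added after their values were seen. A planned comparison of the ligands' protein sequences was not made. The promoters shown differ from the plan, which named called feedback genes outside chromosome 18. Alternatives were DESeq2 1.42.0, other scalings and filters, a replicate block, leaving out each library, subtraction of chromosome medians and another gene length.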

Additional observations from a re-analysis of the deposited data

How the results depend on the processing

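Tgfb2, Tgfb3, Tgfbr2 and Pmepa1 kept their direction and their call under all 12 alternatives with a test, with log2 differences of 0.69 to 0.77, -0.67 to -0.57, -1.10 to -0.99 and -1.21 to -1.07. With each library left out in turn, the log2 difference ran from 0.21 to 0.30 for Tgfbr1, -0.31 to -0.20 for Smad7 and -0.25 to -0.16 for Tgfbr3. It ran from -0.28 (without WT library 1) to -0.08 (without WT library 3) for Skil. For Tgfb1 it ran from -0.108 to 0.001 and for Tgif1 from -0.059 to 0.005. In these runs the number of genes called higher was 1 to 2 and the number called lower 3 to 5. The sign of Tgif1 also turned, to 0.006, with library size alone and with the filter of 1 CPM in all libraries of a group; it was never called. Deviations of same-numbered libraries had correlations of 0.022, -0.081 and -0.034, while other pairs ran from -0.095 to 0.152. With 3 libraries per group, these values cannot show whether the numbers pair the libraries. With the replicate block Tgfbr1 (0.26, adjusted p = 0.07) and Smad7 (-0.25, adjusted p = 0.0624) were not called by edgeR. That left 1 gene called higher and 3 lower. Less the chromosome median, the log2 difference was 0.44 for Tgfb2, -0.74 for Tgfb3, 0.14 for Tgfbr1, -0.87 for Tgfbr2, -0.36 for Smad7 and -0.29 for Tgif1. With the longest transcript as the length, the shares were 6.45% in KO-labelled and 6.28% in WT libraries for Tgfb1, 48.3% in KO-labelled libraries for Tgfb2, 45.2% and 66.1% for Tgfb3, 27.4% in WT libraries for Tgfbr1, 34.3% and 53.4% for Tgfbr2 and 19.2% in WT libraries for Tgfbr3, and 4 and 5 of the 10 genes kept their place in the order in KO-labelled and WT libraries. The counts of the other pathway lists stayed within 1.5 times under every alternative. The cause of these changes was not tested, except that the length alone changed the shares and the order.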
